A study of Mus musculus with 12 samples.

Results

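The epidermal growth factor (EGF) family is described here through 6 ligand genes, Areg, Ereg, Hbegf, Tgfa, Btc and Nrg1, and 3 receptor genes, Egfr, Erbb2 and Erbb3. They were taken by symbol from the 27998 genes listed for the 12 single-cell libraries of mouse mammary gland. All 9 were listed once in each library, and each identifier matched the gene model of that symbol.

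The ligands are made as membrane-bound precursors that metalloproteases cut to release the active factor, and they bind ERBB receptor tyrosine kinases, which work in pairs. EGFR binds amphiregulin (Areg), epiregulin (Ereg), heparin-binding EGF (Hbegf), TGF-alpha (Tgfa) and betacellulin (Btc), ERBB3 binds neuregulin 1 (Nrg1) but has little kinase activity of its own, and ERBB2 binds no known ligand and acts as the partner of the others. In the mammary gland, amphiregulin is a known estrogen target of the hormone-sensing luminal cells and acts on EGFR of the neighbouring stroma during duct growth.

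The mice were female C57BL/6J of 43 weeks. In 11 of the 12 groups they had received 4-vinylcyclohexene diepoxide (VCD, 160 mg/kg per day for 15 days by injection), which destroys ovarian follicles and models menopause, and the Intact group was age-matched without VCD. VCD_Vehicle, VCD_E2 and VCD_E2_P4 received for 1 week oil, 17β-estradiol (E2, 1 µg per animal per day) or E2 with progesterone (P4, 1 mg per animal per day). The same 3 treatments were combined with food carrying polybrominated diphenyl ethers (PBDEs, flame retardants) at a low dose for 20 weeks (0.05, 0.0028 and 0.0063 mg/kg per day of PBDE-47, PBDE-100 and PBDE-153) in VCD_Low_PBDE, VCD_Low_E2 and VCD_Low_E2_P4. A high dose for 1 week (1, 0.056 and 0.126 mg/kg per day) was used in VCD_High_PBDE, VCD_High_PBDE_E2 and VCD_High_PBDE_E2_P4, so the dose of PBDEs cannot be told apart from its duration. The groups without PBDEs ate matched food with the solvent DMSO. VCD_E2_ICI received E2 and, once, 5 mg of ICI, which blocks estrogen receptors, and VCD_Vehicle_NormEnv was a vehicle group kept in cages that may have shed environmental PBDEs. Each group was 1 library of cells digested from the fourth mammary glands, with the lymph nodes removed and large cells strained out, and the number of animals in a library is not given in the sources used here. The 9 VCD libraries of the layout of 3 hormone states (none, E2, E2 + P4) by 3 PBDE states (none, low, high) entered the hormone tests, in which libraries of 1 hormone state and different PBDE states served as its replicates. The remaining 3 libraries are given as values.

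In all, 46257 cells passed the filters (1996 to 7570 per library, median depth 11843 to 20446 unique molecular identifiers, UMIs). Cells were sorted into classes by marker genes that include none of the 9 members: 35206 fibroblasts, 6818 immune, 152 luminal and 93 endothelial cells, and 3903 cells that fitted no class. Class names below stand for cells that carried those markers. Luminal cells numbered 1 to 42 per library and 108 of the 152 carried hormone-sensing markers. VCD_Low_E2_P4 stood apart with 10006 barcodes, the lowest median depth and 19.4% of its cells in no class. Libraries shared up to 185 barcodes, 3.66% of the smaller library of that pair, and 650 of the cells that passed (1.41%) had a barcode also found in another library. Sharing fell into sets, with 95 to 185 barcodes for each pair of Intact, VCD_Vehicle, VCD_E2, VCD_E2_P4 and VCD_Low_PBDE, 84 for VCD_Low_E2 and VCD_Low_E2_P4, 27 to 35 among VCD_High_PBDE, VCD_Vehicle_NormEnv and VCD_E2_ICI, and at most 20 for any other pair. In the low and high PBDE states the library without hormone thus shared few barcodes with its hormone libraries. A UMI of the collagen gene Col1a1, a fibroblast marker, was found in 39.2% of immune cells, 38.2% of luminal cells and 35.5% of endothelial cells. Its source, such as RNA free in the droplets, was not tested. Levels are UMIs of a gene per 1000000 UMIs (CPM) of the summed cells of a class, and intervals are exact 95% Poisson intervals that cover counting error only.

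Ereg, Areg and Btc are neighbours on chromosome 5, within 328.373 kb of the mouse genome (GRCm38). Ereg lies at chr5:91074622-91093646 and Areg at chr5:91139599-91148432 on the plus strand, and Btc at chr5:91357261-91402994 on the minus strand. Elsewhere lie Tgfa at chr6:86195223-86275719 (plus), Nrg1 at chr8:31814551-32884029 (minus), Egfr at chr11:16752203-16918158 (plus), Erbb2 at chr11:98412470-98437716 (plus) and Erbb3 at chr10:128567523-128589652 (minus). The promoters of Areg (chr5:91139349-91139648, plus strand) and Egfr (chr11:16751953-16752252, plus strand) are printed from RefSeq (GRCm38.p6), 250 bases before to 50 after the start site, because these genes are the ligand and the receptor with the sharpest split between luminal cells and fibroblasts. Capitals mark a cyclic AMP response element.
Areg: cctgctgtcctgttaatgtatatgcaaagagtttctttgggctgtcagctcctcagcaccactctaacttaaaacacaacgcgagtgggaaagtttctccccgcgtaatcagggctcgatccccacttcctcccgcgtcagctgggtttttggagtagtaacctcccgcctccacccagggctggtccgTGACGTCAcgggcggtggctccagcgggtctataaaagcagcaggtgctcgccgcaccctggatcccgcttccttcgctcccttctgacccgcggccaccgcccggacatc
Egfr: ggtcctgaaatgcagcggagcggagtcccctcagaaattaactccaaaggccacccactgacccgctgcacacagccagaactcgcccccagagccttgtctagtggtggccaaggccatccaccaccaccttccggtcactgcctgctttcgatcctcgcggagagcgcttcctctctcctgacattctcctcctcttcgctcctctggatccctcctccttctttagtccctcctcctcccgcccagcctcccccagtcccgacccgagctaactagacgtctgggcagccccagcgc
The element TGACGTCA was found once in the Areg window, its first base 61 bases before the start site, and 1.79% of 32851 promoters of the same length held it. Neither the estrogen response element (GGTCA, any 3 bases, TGACC, in 0.0700% of promoters) nor the AP-1 site TGANTCA (7.81%) was found in the Areg window on either strand. None of the 3 motifs was found in the Egfr, Tgfa, Btc or Erbb2 windows, the other members with a promoter in the table.

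**Figure D1:**
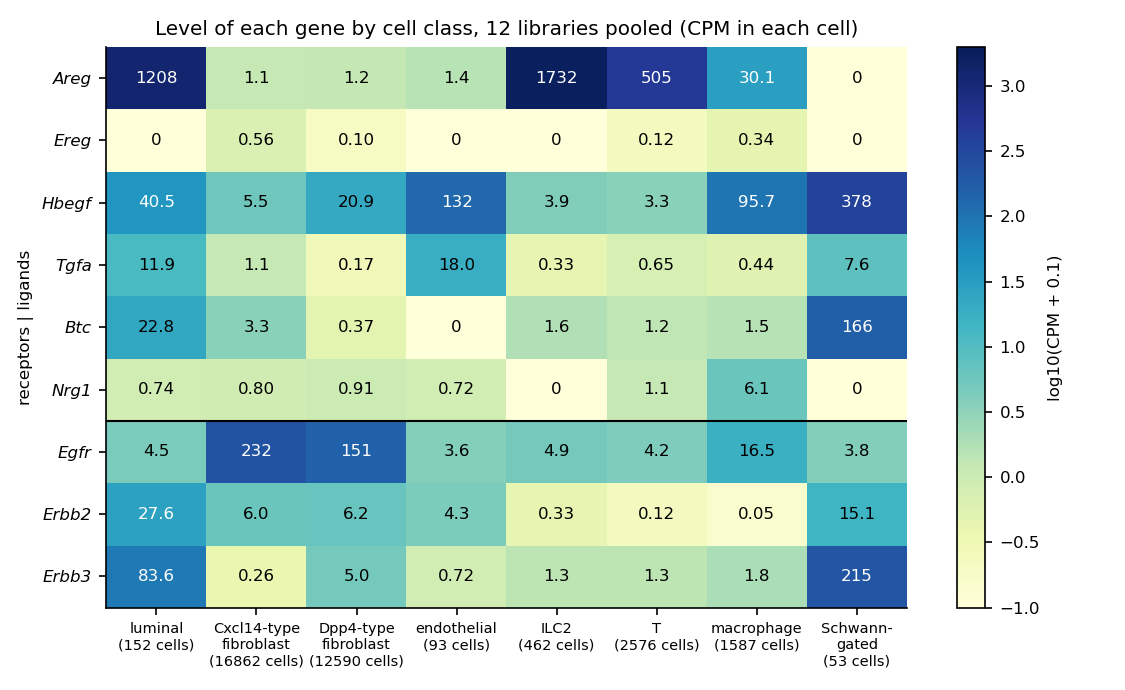
Heat map of the pooled level (CPM, log colour scale) of the 9 genes in 8 groups of cells over all 12 libraries. Areg was highest in ILC2 (1732 CPM) and luminal cells (1208 CPM), Egfr in the 2 fibroblast types (232 and 151 CPM), and Erbb3 in Schwann (215 CPM) and luminal cells (83.6 CPM).

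The ligands differed in the cells that carried them. Areg was at 1208 CPM (1174 to 1242) in the pooled luminal cells and at 285 CPM in immune cells, against 1.15 CPM in fibroblasts and 1.44 CPM, 2 UMIs, in endothelial cells. By library, the sums of at least 10 cells ranged from 96.2 to 2715 CPM in 5 luminal sums and from 117 to 451 CPM in 12 immune sums, so these 2 classes overlapped, and both lay above all 12 fibroblast sums (0.343 to 2.15 CPM) and all 3 endothelial sums (0 to 2.73 CPM). A UMI of Areg was found in 51.3% of luminal cells at a median depth of 5477 UMIs and in 1.69% of fibroblasts at 16758. In cells thinned to 5000 UMIs these shares were 57.1% and 0.505%.

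Within the immune cells, Areg was carried by a few kinds. Group 2 innate lymphoid cells (ILC2, 462 cells), which release type 2 cytokines in tissues, held 1732 CPM and T cells (2576 cells) 505 CPM, and 81.6% and 37.4% of these cells had a UMI (85.3% and 40.6% after thinning). ILC2 were above T cells in every library, at 1101 to 2886 CPM against 75.8 to 829 CPM. Macrophages were at 30.1 CPM, mast cells at 167 CPM (88.9 CPM without VCD_Vehicle_NormEnv), natural killer cells at 38.4 CPM (20.3 CPM without VCD_Vehicle) and B cells at 18.9 CPM, and neutrophils held 5 UMIs (4.79 CPM). Within the luminal cells, Areg was at 1323 CPM in the 108 hormone-sensing cells and at 44.6 CPM (8 UMIs) in the 15 alveolar cells.

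Hbegf, a heparin-binding ligand of EGFR, had its highest pooled level of the 4 classes in endothelial cells. It was at 132 CPM there, 40.5 CPM in luminal cells and 12.03 CPM in fibroblasts, and macrophages, among the immune cells, were at 95.7 CPM. Within the luminal class, the 15 alveolar cells were at 278 CPM (50 UMIs) and the 108 hormone-sensing cells at 24.8 CPM (88 UMIs, 8.54 CPM without VCD_Low_PBDE). Of the alveolar UMIs, 34 came from 1 cell of VCD_E2_ICI, and without that library the alveolar level was 125 CPM. The 3 endothelial sums of at least 10 cells held 19.1, 114 and 313 CPM, which overlapped the luminal (10.3 to 75.3 CPM) and immune ranges (16.2 to 63.5 CPM). In macrophages Hbegf ran from 57.2 to 189 CPM with a median of 85.1 CPM over 12 libraries, above all 12 T cell values, of which the highest was 8.64 CPM.

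Of the 4 classes, Btc had its highest pooled level in luminal cells, and Tgfa in endothelial and luminal cells. Btc was at 22.8 CPM in luminal cells (92 UMIs), 1.73 CPM in fibroblasts and 0.966 CPM in immune cells, and no UMI was seen in 93 endothelial cells. Against the limit that a count of 0 allows (3 UMIs over the pooled endothelial cells), luminal Btc was at least 10.6-fold higher. Tgfa was at 11.9 CPM in luminal (48 UMIs), 17.98 CPM in endothelial (25 UMIs, 7.92 CPM without VCD_High_PBDE_E2), 0.764 CPM in fibroblast and 0.728 CPM in immune cells. The luminal sums of both genes (6.46 to 71.8 CPM for Btc, 7.75 to 19.9 CPM for Tgfa) lay above every fibroblast and immune sum.

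Ereg and Nrg1 were low in all 4 classes. Ereg held 196 UMIs over all fibroblasts (0.322 CPM), 15 over immune cells and none in luminal or endothelial cells. Fibroblast Ereg was at 0.562 CPM in the fibroblasts that carry Cxcl14 and related genes, 0.0955 CPM in those that carry Dpp4 and 0.228 CPM in those of neither type. Nrg1 was at 2.76 CPM in immune cells, with 6.11 CPM in macrophages, and at 1.44 CPM in fibroblasts (0.753 CPM without VCD_Low_E2), where its range over libraries (0.247 to 7.44 CPM) covered the whole immune range (1.62 to 5.63 CPM).

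Of the receptors, Egfr had its highest level of the 4 classes in fibroblasts. It was at 197 CPM (196 to 198) in fibroblasts, 24.98-fold the immune level (7.88 CPM), 44.1-fold the luminal level (4.47 CPM) and 54.7-fold the endothelial level (3.60 CPM) in pooled sums. Its 12 fibroblast values ran from 147 to 255 CPM with a median of 193 CPM and overlapped no immune (4.51 to 14.7 CPM), luminal (1.16 to 10.6 CPM) or endothelial value (0 to 4.97 CPM), which overlapped one another. A UMI of Egfr was found in 82.4% of fibroblasts and in 6.81% of immune, 9.21% of luminal and 5.38% of endothelial cells. At 5000 UMIs per cell the shares were 55.8%, 4.15%, 2.60% and 1.35%. The shares outside fibroblasts are not read as expression, since UMIs of a fibroblast marker were also found in these classes and their source was not tested.

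Of the 4 classes, luminal cells had the highest pooled levels of Erbb3 and Erbb2. Erbb3 was at 83.6 CPM in luminal cells against 2.33 CPM in fibroblasts and 1.41 CPM in immune cells, and its 5 luminal sums (64.6 to 114 CPM) overlapped no sum of another class. Erbb2 was at 27.6 CPM in luminal cells, 6.15 CPM in fibroblasts and 4.31 CPM (6 UMIs) in endothelial cells, and at 0.154 CPM (11 UMIs) in immune cells. Its luminal sums (20.7 to 46.4 CPM) lay above the fibroblast (5.20 to 7.28 CPM) and endothelial sums (2.73 to 9.94 CPM), which overlapped, and all lay above the immune sums (0 to 0.675 CPM).

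Each class was compared with the mean of the other 3 by edgeR's quasi-likelihood test on 32 sums, with Benjamini-Hochberg adjustment over 14414 genes. Of the members, 8 were tested and Ereg was too low. Luminal cells had 5 of 8 called higher (Areg, Btc, Tgfa, Erbb2 and Erbb3) and 1 called lower (Egfr), where 49.1% of all genes were called, 24.4% higher and 24.7% lower. Fibroblasts had 2 higher (Egfr, Erbb2) and 2 lower (Hbegf, Tgfa), against 53.4% of all genes (35.7% and 17.6%). Immune cells had 2 higher (Areg, Nrg1) and 3 lower (Tgfa, Erbb2, Erbb3), against 60.4% of all genes (34.6% and 25.8%). Endothelial cells had 2 higher (Hbegf, Tgfa) and 2 lower (Areg, Egfr), against 26.5% of all genes (15.5% and 11.0%). Fibroblast Erbb2 and immune Areg were called higher although their pooled levels lay below those of luminal cells.

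Fibroblast Egfr was higher by 5.74 on the log2 scale (SE 0.17, edgeR adjusted p = 2.2e-19) and luminal Erbb2 by 3.87 (SE 0.30, adjusted p = 1.6e-10). Because the 3 endothelial sums held at most 1 UMI of Areg, Btc or Erbb3, fitted folds of these genes depend on the prior count of the fit, and they are given with the endothelial sums left out, an alternative added after the data were seen. Luminal cells were then higher by 5.13 for Areg (SE 0.48, edgeR adjusted p = 7.9e-09), by 3.78 for Btc (SE 0.53) and by 5.19 for Erbb3 (SE 0.23). Without the endothelial sums the same fit also called fibroblasts lower in Areg (-8.55, SE 0.43), Btc (-1.23, SE 0.36) and Erbb3 (-2.01, SE 0.19). It called immune cells higher in Areg (3.42, SE 0.34) and Hbegf (0.76) and lower in Btc (-2.55).

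Endothelial calls rested on 3 sums. The Hbegf call (2.33, SE 0.63, edgeR adjusted p = 0.0065) was lost without VCD_Low_E2_P4 (1.00, adjusted p = 0.44), and the Tgfa call (1.98, SE 0.68, adjusted p = 0.032) was lost without VCD_E2, VCD_Low_E2 or VCD_Vehicle_NormEnv and with shared barcodes removed. The endothelial Areg call was lost with a stricter gate (edgeR adjusted p = 0.052) and without VCD_Low_E2 (adjusted p = 0.13). In cells thinned to 5000 UMIs the Egfr calls of endothelial and luminal cells (adjusted p = 1.00 in both) and the Nrg1 call of immune cells (adjusted p = 0.15) were lost, and immune Erbb3 turned to 0.035.

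**Figure D2:**
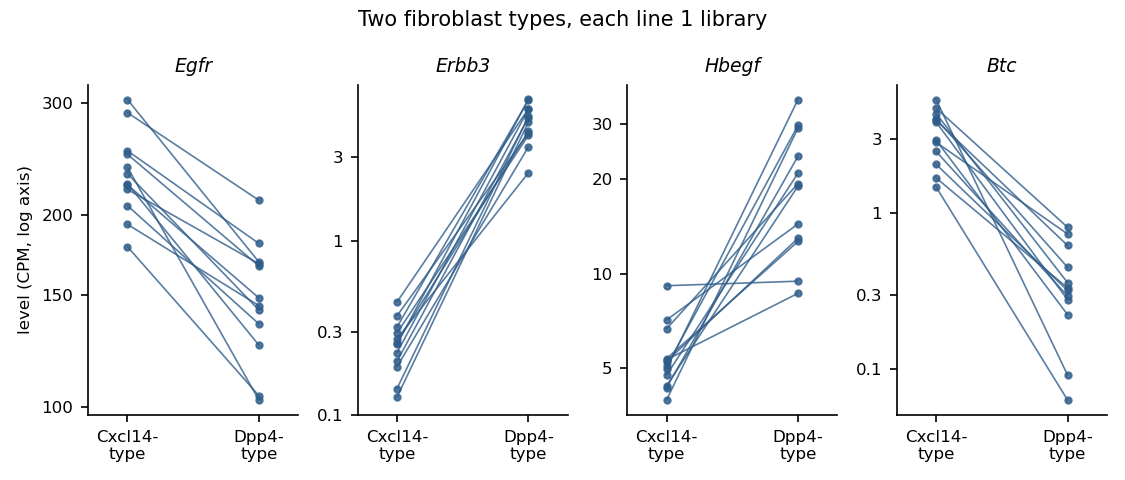
Levels of Egfr, Erbb3, Hbegf and Btc (CPM, log axes) in Dpp4-type and Cxcl14-type fibroblasts, with a line joining the 2 values of each of the 12 libraries. From the Cxcl14-type at the left to the Dpp4-type at the right, all 12 lines rose for Erbb3 and Hbegf and all 12 fell for Egfr and Btc.

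Of the 2 main fibroblast types, the Dpp4-type was higher in Erbb3 and Hbegf and the Cxcl14-type in Egfr, Btc and Tgfa. Dpp4-type fibroblasts (12590 cells, median depth 18921 UMIs) and Cxcl14-type fibroblasts (16862 cells, 15191.5 UMIs) were compared in the 12 libraries that held both. Erbb3 was at 2.45 to 6.44 CPM in the Dpp4-type and 0.127 to 0.444 CPM in the Cxcl14-type, higher in the Dpp4-type in 12 of 12 libraries by 4.22 on the log2 scale (SE 0.16, edgeR adjusted p = 4.6e-12). A UMI of Erbb3 was found in 8.24% and 0.397% of these cells, and in 2.44% and 0.0700% at 5000 UMIs. Although low, this was a larger split than that of any other member. Hbegf was also higher in the Dpp4-type in 12 of 12 libraries, at a median of 19.2 against 5.16 CPM (1.78, SE 0.22, edgeR adjusted p = 3.7e-06).

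Egfr, Btc and Tgfa went the other way in 12 of 12 libraries. Egfr had medians of 146 CPM in the Dpp4-type and 228 CPM in the Cxcl14-type, a difference of -0.63 (SE 0.06, edgeR adjusted p = 4.1e-07), and both types kept a UMI in over 80% of cells (82.0% and 84.2%). Btc had medians of 0.327 and 3.41 CPM (-3.10, SE 0.24) and Tgfa of 0.152 and 1.11 CPM (-2.69, SE 0.35), both past the threshold. Thus 2 members were called higher and 3 lower of 8 tested, where 73.3% of all 12802 genes were called, 35.7% higher and 37.6% lower, so the members were not called more often than all genes. Areg, Erbb2 and Nrg1 did not pass (edgeR adjusted p = 0.77, 0.18 and 0.40), though Erbb2 passed as higher in the Dpp4-type with a stricter gate (0.15, adjusted p = 0.038). Ereg was filtered out as too low, and with no filter it was called lower in the Dpp4-type (-2.32, SE 0.68, adjusted p = 0.0089).

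The immediate early and dissociation list, 16 genes that respond to tissue digestion, also differed between the types. Its summed level was 12015 to 18442 CPM (median 14945 CPM) in the Dpp4-type and 17764 to 42774 CPM (median 31105 CPM) in the Cxcl14-type, and 1 of its genes was called higher and 14 lower in the Dpp4-type, with a median of -0.96 on the log2 scale. The interferon list (6 genes) was at 147 to 1143 CPM (median 548 CPM) in the Dpp4-type and 124 to 430.0 CPM (median 262 CPM) in the Cxcl14-type, with all 6 genes called higher in the Dpp4-type. The part of either list in the differences of the members was not tested.

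Hormone treatment was read first in luminal cells. Without hormone, luminal Areg was at 126 CPM (75.9 to 197) in VCD_Vehicle (10 cells, 19 UMIs) and 96.2 CPM (76.6 to 119) in VCD_Low_PBDE (18 cells, 83 UMIs). No UMI was seen in the 6 luminal cells of VCD_High_PBDE, where the limit that a count of 0 allows was 76.9 CPM. Immune Areg of these 3 libraries was at 117, 451 and 299.8 CPM. The luminal level thus did not differ from the immune level beyond its counting interval in VCD_Vehicle and lay below it in VCD_Low_PBDE and VCD_High_PBDE. With E2 it was at 1199.9 CPM (1124 to 1279.7) in VCD_E2 (42 cells), 1238 CPM in VCD_Low_E2 (21 cells) and 2556 CPM in VCD_High_PBDE_E2 (7 cells). All 3 E2 libraries thus lay above all 3 libraries without hormone.

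With E2 + P4, luminal Areg was at 2715 CPM (2569 to 2867) in VCD_E2_P4 (20 cells) and 1521 CPM in VCD_Low_E2_P4 (7 cells), and 430.1 CPM in the single luminal cell of VCD_High_PBDE_E2_P4. Outside the layout, Areg was at 953 CPM in Intact (7 cells), 207 CPM in VCD_Vehicle_NormEnv (7 cells) and 121 CPM in VCD_E2_ICI (6 cells). The Intact value lay between the libraries without hormone and those with E2, and the values of the second vehicle library and of the library with E2 and ICI lay near those without hormone. These 3 libraries had no replicate.

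**Figure D3:**
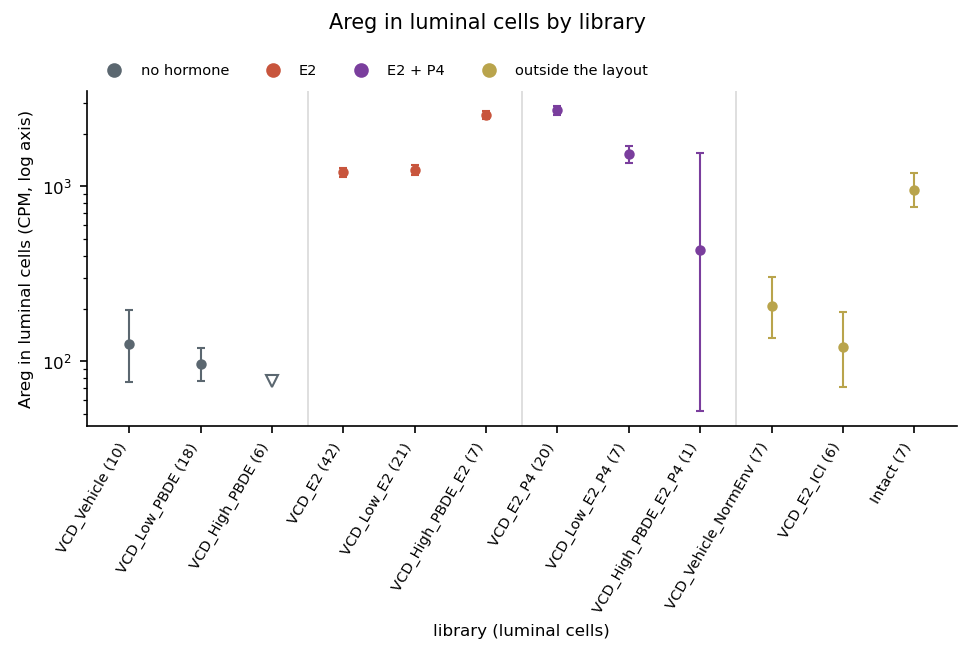
Luminal Areg in each library (CPM, log axis) with exact 95% Poisson intervals, grouped by hormone state, with the number of cells in parentheses and an open triangle at 76.9 CPM, the limit that a count of 0 allows, for VCD_High_PBDE. The 3 libraries without hormone sit at 0 to 126 CPM and the 5 hormone libraries of at least 5 luminal cells at 1199.9 to 2715 CPM.

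Over the 8 layout libraries with at least 5 luminal cells, Areg was higher with hormone by 6.23 in log2(CPM + 1) (5 libraries against 3, exact permutation test without regard to PBDE state, two-sided, p = 0.0357, the smallest that 56 permutations allow). Since VCD_High_PBDE enters this value as 0, the difference was also taken with that library at the limit of 3 counts, which gave 4.14 (p = 0.0357), and without it, which gave 3.97 (5 libraries against 2, exact permutation test, two-sided, p = 0.0952, the smallest that 21 permutations allow). Groups that do not overlap always give the smallest p in such a test. The permutation test was run for this gene only, at a cell limit set after the data were seen. The edgeR fit on the 5 sums of at least 10 cells gave 4.13 (SE 0.27) with 1 residual degree of freedom. With 8 sums of at least 5 cells it gave 4.21 (SE 0.36, edgeR adjusted p = 3.3e-10). The edgeR tests of luminal cells borrow spread from all genes tested, so their p-values do not rest on these few sums alone. Over 15 alternatives, among them each of the 8 sums left out in turn, the fitted Areg difference ran from 3.50 to 4.67 and passed the threshold in each. Since 1 cell supplied 33.7% to 88.9% of the Areg UMIs of a library with at least 6 luminal cells and any Areg, the mean over cells of each cell's own CPM was also taken. It was 0, 71.8 and 307 CPM without hormone and 589 to 3450 CPM in the 5 hormone libraries, again with no overlap. In the hormone-sensing cells alone, Areg was at 0 to 96.4 CPM without hormone (4 to 17 cells) and 1271 to 3299 CPM in these 5 libraries (5 to 30 cells).

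Other members of the luminal cells moved less firmly. Of 6 members tested, Areg and Btc were called higher and Hbegf lower with hormone, where 7.90% of 8048 genes were called, 4.56% higher and 3.34% lower. Btc was at 6.63 and 8.11 CPM without hormone (1 and 7 UMIs) and at 6.46, 19.9 and 71.8 CPM with hormone (5, 13 and 34 UMIs), so the groups overlapped, and its call (2.75, SE 0.73, edgeR adjusted p = 0.0043) was lost with sums of at least 5 cells (1.86, adjusted p = 0.11), by DESeq2 (adjusted p = 1.00) and at a 10% mitochondrial limit (adjusted p = 0.14). Hbegf was at 59.7 and 75.3 CPM without hormone (9 and 65 UMIs) and at 10.3, 22.95 and 23.2 CPM with hormone (-1.46, SE 0.47, edgeR adjusted p = 0.029), and at -1.54 with 8 sums (adjusted p = 0.036). The Hbegf call was lost by DESeq2 (adjusted p = 1.00), with no filter on low counts (adjusted p = 0.059), at a 10% mitochondrial limit (adjusted p = 0.32), and, of the 8 sums, without that of VCD_Vehicle, VCD_Low_PBDE, VCD_Low_E2 or VCD_Low_E2_P4 (edgeR adjusted p = 0.23, 0.68, 0.054 and 0.26). Erbb3 was at 79.6 and 104 CPM without hormone and 64.6, 65.8 and 114 CPM with hormone, and did not pass (adjusted p = 0.99).

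In luminal cells, the summed level of the immediate early and dissociation list was 9674 and 16855 CPM in the 2 luminal sums without hormone and 6016 to 6392 CPM in the 3 with hormone. In the 7 luminal cells of VCD_High_PBDE_E2 it was 15378 CPM. Of the 15 listed genes tested, 10 were called lower with hormone and none higher. Its part in the Hbegf difference was not tested. The estrogen list, 8 genes used as a check of the estrogen response, had 6 genes tested in luminal cells. None was called higher and 2 were called lower with hormone (4.56% and 3.34% of all genes), with a median of -0.61 on the log2 scale against 0.01 over all genes.

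For P4, VCD_E2_P4 was the only E2 + P4 library with at least 10 luminal cells, so the fit takes this single library to vary like the others, and its result is given as values. Areg was at 2715 CPM there against 1199.9 and 1238 CPM in the 2 E2 libraries (1.22, SE 0.29, edgeR adjusted p = 0.0012), and Btc at 71.8 against 6.46 and 19.9 CPM (3.39, SE 0.68, adjusted p = 3.9e-05), where 7.44% of genes were called, 4.00% higher and 3.44% lower. With sums of at least 5 cells neither passed (edgeR adjusted p = 0.45 and 0.095), and both differences were below 0 once VCD_E2 or VCD_E2_P4 was left out, so no difference with P4 was established for these genes. The hormone and P4 comparisons share the E2 and E2 + P4 libraries.

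**Figure D4:**
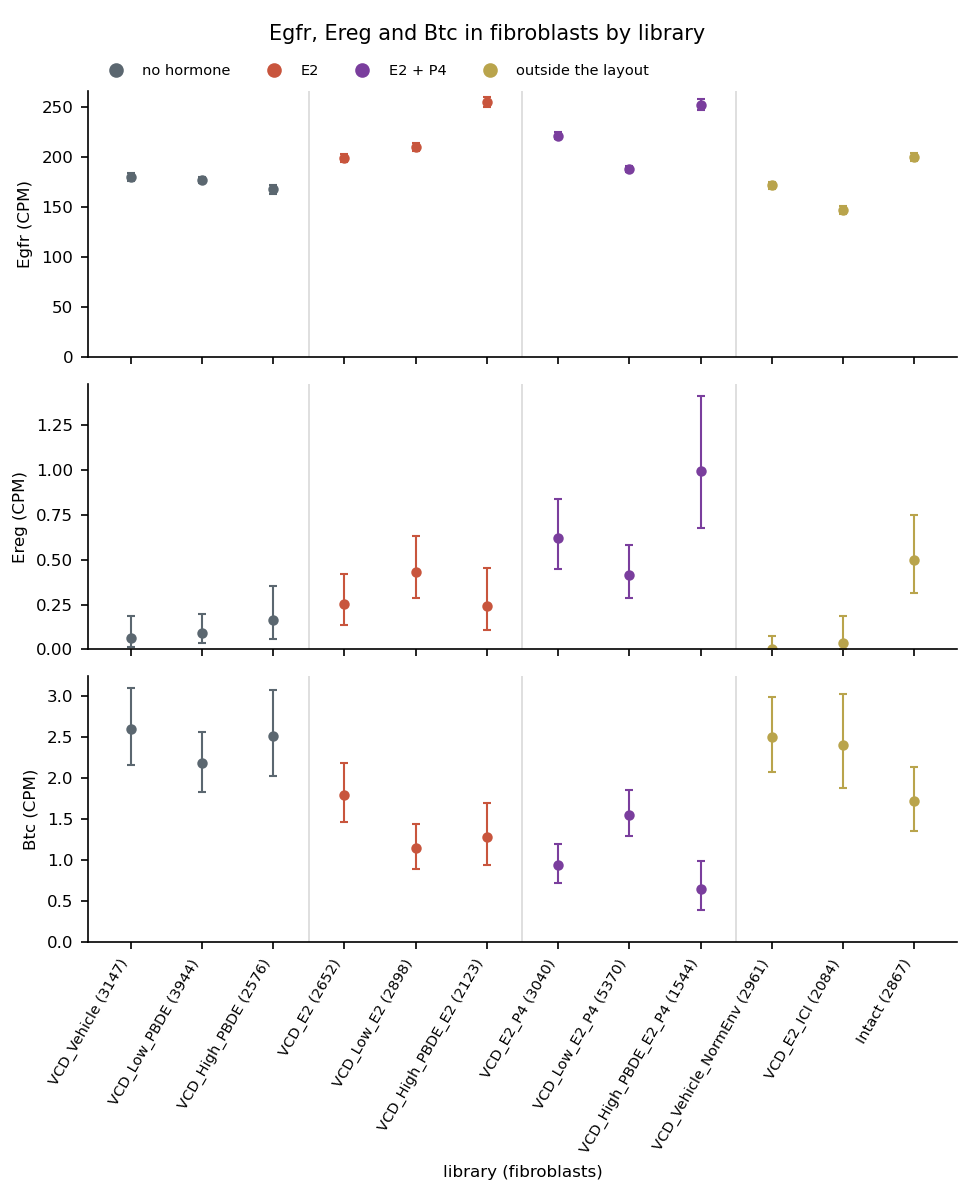
Egfr, Ereg and Btc in fibroblasts of each library (CPM) with exact 95% Poisson intervals, grouped by hormone state. Ereg ran from 0.0643 to 0.162 CPM without hormone and from 0.240 to 0.995 CPM in the 6 hormone libraries, and Btc from 2.18 to 2.59 against 0.642 to 1.79 CPM.

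In fibroblasts, 2 ligands passed the test of hormone against none, Ereg higher and Btc lower. Ereg was at 0.0643, 0.0913 and 0.162 CPM in VCD_Vehicle, VCD_Low_PBDE and VCD_High_PBDE (3, 6 and 6 UMIs). With E2 it was at 0.251, 0.435 and 0.240 CPM (14, 27 and 9 UMIs) and with E2 + P4 at 0.621, 0.417 and 0.995 CPM (43, 33 and 31 UMIs), each in the order none, low and high PBDE. The hormone libraries overlapped none of those without hormone, and the fit gave 2.10 (SE 0.46, edgeR adjusted p = 0.021). Ereg was at 0.499 CPM in Intact (23 UMIs), 0 in VCD_Vehicle_NormEnv and 0.0333 CPM in VCD_E2_ICI (1 UMI).

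Most of the Ereg UMIs with hormone were in Cxcl14-type fibroblasts, with 3 UMIs in the 3 libraries without hormone against 36 with E2 and 89 with E2 + P4 (fit within this type 4.12, SE 0.93, edgeR adjusted p = 0.015). In the Dpp4-type, the 3 hormone states held 12, 3 and 7 UMIs, and in fibroblasts of neither type 0, 11 and 11 UMIs. In VCD_High_PBDE_E2, 6 of the 9 Ereg UMIs were in fibroblasts of neither type. The fibroblast call was lost without VCD_Vehicle, VCD_E2_P4, VCD_Low_PBDE or VCD_High_PBDE (adjusted p up to 0.10).

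Betacellulin went the other way. Btc was at 2.59, 2.18 and 2.51 CPM without hormone, at 1.79, 1.14 and 1.28 CPM with E2 and at 0.939, 1.55 and 0.642 CPM with E2 + P4, in the same order of PBDE. All 6 hormone values lay below all 3 values without hormone, a difference of -1.05 (SE 0.25, edgeR adjusted p = 0.027). VCD_E2_ICI (2.40 CPM) and VCD_Vehicle_NormEnv (2.49 CPM) lay within the range without hormone, and Intact (1.71 CPM) with the E2 libraries. The Btc call was lost in 6 of 9 fits with 1 library left out (adjusted p up to 0.098), those without VCD_Vehicle, VCD_E2_P4, VCD_Low_PBDE, VCD_Low_E2, VCD_High_PBDE or VCD_High_PBDE_E2_P4. By type and in the order none, E2 and E2 + P4, pooled Btc was at 4.30, 2.84 and 2.20 CPM in the Cxcl14-type. It was at 0.617, 0.295 and 0.230 CPM in the Dpp4-type and 1.09, 0.546 and 0.909 CPM in neither type. The Dpp4-type share of fibroblasts was 23.8%, 40.6% and 43.1% without hormone and 32.5%, 34.7% and 34.5% with E2. It was 41.3%, 33.7% and 52.3% with E2 + P4 (same order of PBDE), and its part in the Btc difference was not tested.

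Within the libraries that shared most barcodes, VCD_Vehicle and VCD_Low_PBDE lay below VCD_E2 and VCD_E2_P4 in luminal Areg and fibroblast Ereg and above them in fibroblast Btc, as the values above give. With shared barcodes removed, both fibroblast calls were kept, Ereg at 2.08 (edgeR adjusted p = 0.020) and Btc at -1.03 (adjusted p = 0.026). Only 1.41% of the cells had a shared barcode, so removing them cannot show the part of these sets of libraries in the hormone differences. That part was not tested. VCD_E2_ICI shared 34 barcodes with VCD_Vehicle_NormEnv and 27 with VCD_High_PBDE, both without hormone, and 13 with VCD_E2. The part of this sharing in its nearness to the libraries without hormone was not tested either.

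With 1 member called higher and 1 lower of 9, against 20.2% of 14695 genes (10.5% higher and 9.72% lower), the members were called about as often as all genes. Egfr was higher in all 6 hormone libraries (187.6 to 255 CPM) than in the 3 without hormone (167 to 179.8 CPM), yet it did not pass (0.27, SE 0.10, edgeR adjusted p = 0.099). In the Dpp4-type alone, Egfr was at 103, 125 and 144 CPM without hormone, 166 to 169 CPM with E2 and 148 to 211 CPM with E2 + P4 (0.47, SE 0.14, adjusted p = 0.061). In the Cxcl14-type the ranges overlapped (193 to 238, 219 to 303 and 223 to 289 CPM). Intact was at 200.2 CPM and VCD_E2_ICI, at 147 CPM, was the lowest of the 12 libraries. P4 called no member in fibroblasts, where 2 of 14695 genes (0.0136%) were called, 1 in each direction (0.00681%), and 1447 had an unadjusted p under 0.05.

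The immediate early and dissociation list moved with hormone in the same fibroblasts. Its summed level was 25679 to 27777 CPM without hormone, 19553 to 21257 CPM with E2 and 15502 to 17144 CPM with E2 + P4, and 13 of its 16 genes were called lower. The interferon list (6 genes) was at 139 to 308 CPM without hormone and 434 to 846 CPM with hormone, with 4 genes called higher. Of the estrogen list, 7 genes were tested in fibroblasts, with 1 called higher and none lower (10.5% and 9.72% of all genes). With the stress and mitochondrial genes taken out of the total, Egfr was at 178 to 189.8 CPM without hormone and 196 to 268 CPM with hormone, Ereg at 0.0679 to 0.172 and 0.252 to 1.04 CPM, and Btc at 2.30 to 2.74 and 0.669 to 1.89 CPM. This changes only the total by which the members' counts are divided, so it cannot show the part of these lists, which was not tested.

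Nrg1 in fibroblasts was high in 2 libraries. It was at 2.55 CPM (142 UMIs) in VCD_E2 and 7.44 CPM (462 UMIs) in VCD_Low_E2, and at 0.247 to 1.07 CPM in the other 10. These UMIs were spread over 86 and 176 cells, and the highest cell held 4.93% and 6.06% of them. The level was highest in fibroblasts of neither type, at 6.68 and 19.3 CPM in these 2 libraries (79 and 318 UMIs) and 0 to 1.959 CPM in the others. Hormone against none did not pass for Nrg1 (1.78, SE 0.77, edgeR adjusted p = 0.14), while it passed without VCD_High_PBDE_E2, the E2 library at 0.507 CPM (2.22, adjusted p = 0.024), and by DESeq2 (adjusted p = 0.022).

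**Figure D5:**
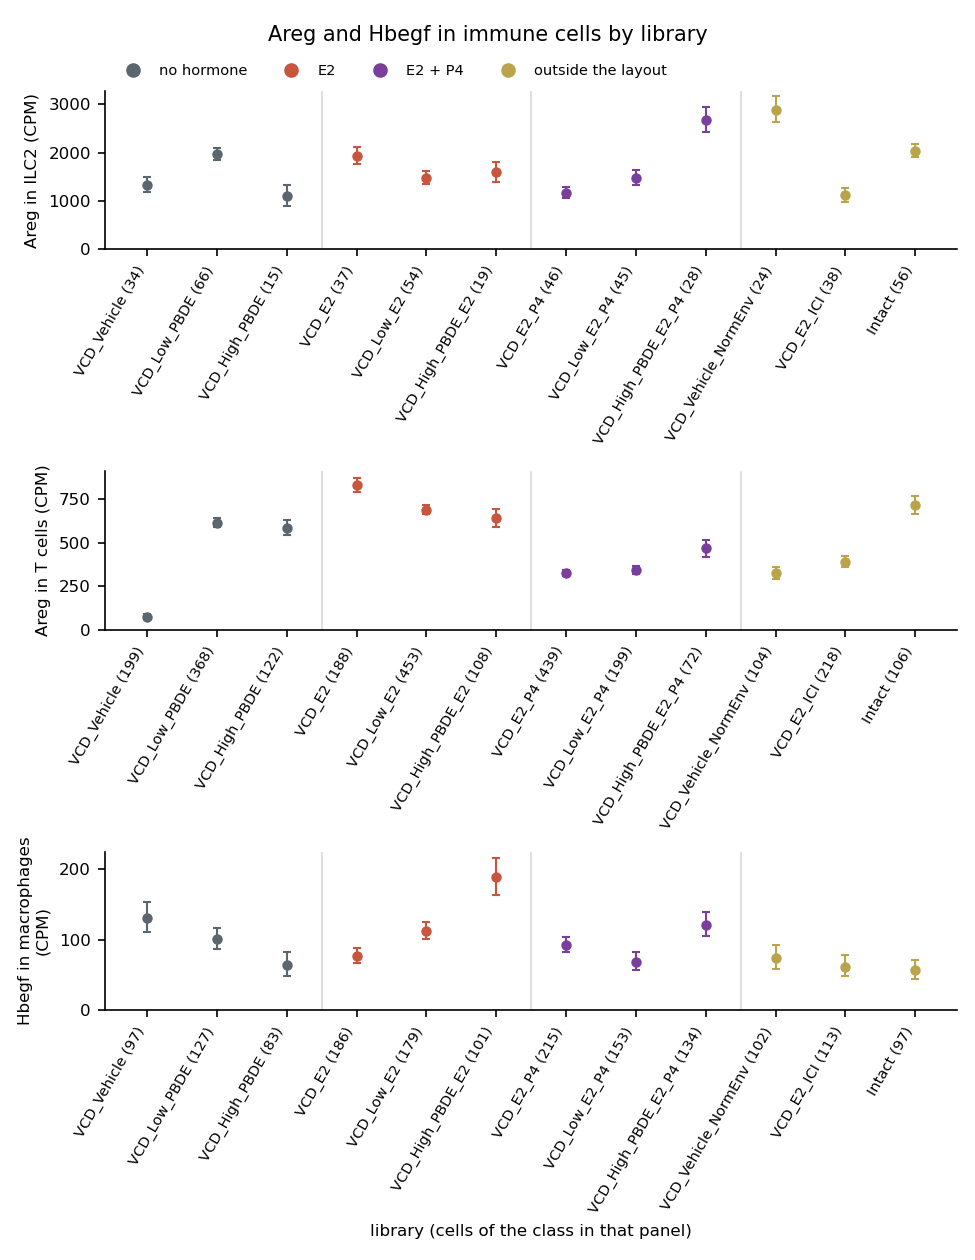
Areg in ILC2 and T cells and Hbegf in macrophages of each library (CPM) with exact 95% Poisson intervals, grouped by hormone state. The libraries without hormone overlap those with hormone in the ILC2 and macrophage panels, and T cell Areg in VCD_Vehicle (75.8 CPM) is the lowest of its panel, with E2 at 641 to 829 CPM above E2 + P4 at 324 to 467 CPM.

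In immune cells no member was called for hormone or for P4 (5 members tested, edgeR). Over all genes, 1 of 11908 genes (0.00840%) was called in each comparison, 1148 and 1117 genes had an unadjusted p under 0.05, and DESeq2 called 109 and 19 genes. Areg of T cells was at 75.8, 616 and 586 CPM without hormone, at 829, 689.8 and 641 CPM with E2, and at 324, 342 and 467 CPM with E2 + P4, in the order none, low and high PBDE. VCD_Vehicle was thus far below the other libraries without hormone, and the E2 libraries lay above the E2 + P4 libraries without overlap. Within T cells neither hormone (0.49, SE 0.48, adjusted p = 0.98) nor P4 (-1.05, SE 0.52, adjusted p = 0.40) passed. Areg of ILC2 ran from 1101 to 2886 CPM and differed by 0.18 (SE 0.25) between hormone and none.

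Hbegf of macrophages was at 130.5, 101 and 63.7 CPM without hormone, 77.2, 113 and 189 CPM with E2, and 93.0, 68.4 and 121 CPM with E2 + P4. These ranges overlapped, and the hormone difference was 0.03 (SE 0.26). Nrg1 of macrophages ran from 1.12 to 16.2 CPM (1 to 20 UMIs a library). The difference of the hormone effect between fibroblasts and immune cells passed for none of the 8 members tested, where 1.72% of 13711 genes passed, and was largest for Nrg1 (2.39, SE 0.69, edgeR adjusted p = 0.14). Hormone effects in endothelial cells could not be fitted, since only 2 layout libraries held at least 10 such cells.

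The wider pathway was followed in a list of 54 genes: 5 other ligands and the receptor Erbb4, proteases that shed ligands, proteins that restrain the receptors, adaptors and kinases, and feedback and target genes. Of 51 tested, fibroblasts had 26 called higher and 14 lower than the other classes, with a median difference of 0.38 on the log2 scale against 0.19 over all genes, of which 35.7% were called higher and 17.6% lower. Luminal cells had 11 of the 51 higher and 24 lower (-0.39 against -0.10), where 24.4% and 24.7% of all genes were called. The sheddase gene Adam12 was the most strongly raised of the list in fibroblasts (38.3 CPM, 6.89, SE 0.38), and it also separated the fibroblast types, lower in the Dpp4-type by 5.72 (SE 0.16). No Adam12 UMI was seen in the luminal sums tested, so the 6.89 depends on the prior count of the fit. Pooled Adam12 was at 1.39 CPM in immune, 3.60 CPM in endothelial and 0.496 CPM (2 UMIs) in luminal cells. Ccnd1, the cyclin D1 gene, was lower in fibroblasts than in the other classes (-3.19, SE 0.17) and higher in the Dpp4-type than in the Cxcl14-type (3.26, SE 0.20).

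Of the other ligands, Epgn, the epigen gene, and Nrg4 were called higher in luminal cells and Nrg2 in immune cells. Epgn was at 17.6 CPM in the pooled luminal cells and under 0.1 CPM in fibroblasts, but 52 of its 71 luminal UMIs came from the 7 cells of VCD_High_PBDE_E2, and without that library it was at 5.41 CPM. Nrg4 was at 13.9 CPM in luminal cells, with 31 of 56 UMIs from VCD_Low_PBDE, and at 7.90 CPM without that library. Nrg2 was at 5.26 CPM in immune cells and at 18.3 CPM in B cells. Egf held 402 UMIs in fibroblasts (0.660 CPM), and Nrg3 (4 UMIs) and the receptor gene Erbb4 (3 UMIs in fibroblasts, 3 in luminal cells) were near 0.

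With hormone, 4 of 50 pathway genes tested were called higher and 6 lower in fibroblasts, a median of -0.05 against -0.02 over all genes, of which 10.5% were called higher and 9.72% lower. Etv4, a transcription factor gene induced by receptor signalling, was higher by 2.20 (SE 0.25, edgeR adjusted p = 0.0028) and Adam12 by 1.22 (SE 0.24), and the immediate early genes Fos (-0.57, SE 0.08) and Egr1 (-0.48, SE 0.07) were lower. In luminal cells none of 44 was called higher and 5 were called lower with hormone (4.56% and 3.34% of all genes), among them the feedback phosphatase gene Dusp6 (-2.06, SE 0.34) and Errfi1, which encodes an EGFR inhibitor (-1.79, SE 0.30). That fit rests on 5 sums and 1 residual degree of freedom. In the smaller sums left out of it, Dusp6 was at 282 CPM in VCD_High_PBDE and 82.8 CPM in VCD_High_PBDE_E2. Errfi1 was at 128 CPM (5 UMIs) and 148 CPM (77 UMIs) in the same libraries. For P4 in luminal cells the E2 + P4 arm is the single library VCD_E2_P4, so fitted differences are given without a test. They were 2.85 for Nrg4, 2.74 for Spry2, a feedback inhibitor gene, and -1.60 for Dusp6. Nrg4 was at 23.2 CPM in VCD_E2_P4, 3.87 CPM in VCD_E2 and 4.59 CPM in VCD_Low_E2. In the smaller sums left out, no Nrg4 UMI was seen in the 7 luminal cells of VCD_Low_E2_P4, and VCD_High_PBDE_E2 was at 1.93 CPM (1 UMI). In VCD_Low_PBDE, without hormone, Nrg4 was at 35.9 CPM. Fos and Egr1 belong also to the immediate early and dissociation list. No pathway gene was called for hormone or P4 in immune cells (46 tested), for P4 in fibroblasts or for the difference of the hormone effect.

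The genes most like each member were sought by Pearson's r of log2(CPM + 1) over the 32 sums per library and class, among 8707 genes. The sums share libraries and differ mostly by class, so the values only describe which genes share a class pattern. Egfr was most like Ogn (0.98), Loxl1 (0.98) and Adgrd1 (0.98), Areg like Coro2a (0.97), Gata3 (0.96) and Rbm47 (0.96), and Erbb3 like Cdo1 (0.96), Fxyd3 (0.96) and Dsp (0.96). Erbb2 was most like Papss1 (0.98), Fdx1 (0.97) and Clybl (0.97), Tgfa like Eci1 (0.94), Ndufb2 (0.90) and Park7 (0.90), and Btc like Defb1 (0.90), Pgam1 (0.88) and Hdgf (0.87). The highest values for Hbegf (Cpsf3 0.83, Bcam 0.83, Gtf2f1 0.82), Nrg1 (Cxcl2 0.74, Pag1 0.73, Traf6 0.71) and Ereg (Lgals3bp 0.65, Irf7 0.64, C4b 0.61) were lower.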

How the data were processed

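For the 12 libraries (Chromium v3) the authors ran Cell Ranger 3.1.0 against mm10, and the deposited values are UMI counts per gene and barcode without normalization. Such 3′ counts do not scale with transcript length. The labels name a HiSeq instrument and the paper a NovaSeq. The 9 genes and all gene lists were chosen with earlier results of these data known.

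Cells under 500 genes or 1000 UMIs, or over 5% mitochondrial UMIs, were left out. Fibroblasts had at least 5 of 7 markers, at least 100 marker UMIs per 10000, at most 1 immune marker and at most 2 markers of another class. Immune cells had at least 3 of 6, luminal and endothelial cells at least 4 of 7 and Schwann cells at least 3 of 6 markers, with fibroblast markers under 50 per 10000, and these limits were chosen after the marker levels were seen. Fibroblast types were set by a log2 ratio of at least 2 between their markers. The Dpp4-type also needed at least 5 of its 6 markers, while the Cxcl14-type had no such limit. Of the cells, 1850 (4.00%) carried both fibroblast and immune markers and entered no class. No doublet caller was used, except in the alternative without doublets (Scrublet in scanpy 1.11.5).

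Counts were summed per library and class. Sums of at least 10 cells were tested with edgeR 4.0.16 (quasi-likelihood test, TMM, low counts filtered, Benjamini-Hochberg adjustment over all genes, threshold 0.05) in R 4.3.3. The model of the hormone tests held hormone and PBDE state, and that of the class and fibroblast type comparisons held the library. No source says that the libraries of 1 hormone state were separate experiments. The p-values of the hormone tests measure the spread left between these libraries after the additive PBDE term. The alternatives were DESeq2 1.42.0, other size factors, no filter, a stricter gate, a 10% mitochondrial limit, doublets removed, VCD_Vehicle_NormEnv as the vehicle, cells thinned to 5000 UMIs and each library left out. Added after the data were seen were shared barcodes removed, endothelial sums left out, single cell types and pooled levels with each library left out. Also added then were luminal sums of at least 5 cells, with each library left out too, and on these sums the permutation test of Areg. That test was repeated with a library without UMIs left out or at its limit. The tests were tried on simulated data. Shares of cells were compared also in thinned cells.

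Besides the 9 members, the text names in each test up to 2 called genes of the pathway list in each direction, those with the largest change, and the 3 genes most like each member. Other genes were named after their values were seen. Positions are from GENCODE M21 on GRCm38, and 5 of the 9 members had a promoter in the RefSeq table. The T cell receptor and Ighm markers Trac, Trbc2 and Ighm were not used here.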

Additional observations from a re-analysis of the deposited data

Results flagged for a closer look

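The 53 Schwann-gated cells, glia of the gland's nerves, took part in no comparison, since no library held 10 of them. Pooled over the libraries they held 378.0 CPM of Hbegf (100 UMIs), 166.3 CPM of Btc (44 UMIs, 23 of them in VCD_Low_E2 and 103 CPM without it) and 215.5 CPM of Erbb3 (57 UMIs), each above the level of all 4 classes compared. A UMI was found in 73.6%, 13.2% and 58.5% of these cells at a median depth of 4046 UMIs.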

How the results depend on the processing

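Gene counts called by edgeR at an adjusted p under 0.05 moved over 1.5 times in the following cases. Thinning to 5000 UMIs gave 1812 (3817 as reported) in the endothelial, 5632 (8700) in the immune and 2067 (7078) in the luminal comparison. Hormone in fibroblasts gave 1752 (2974) in the Dpp4-type only. P4 in fibroblasts (2) gave 111 by DESeq2, 8 with no filter, 4 at a 10% mitochondrial limit, 0 with VCD_Vehicle_NormEnv as vehicle, 13 in the Dpp4-type and 27 in the Cxcl14-type. Hormone in immune cells (1) gave 109 by DESeq2, 99 with no filter, 0 with a stricter gate, with VCD_Vehicle_NormEnv or with shared barcodes removed, 2 in T cells and 29 in macrophages. P4 in immune cells (1) gave 19 by DESeq2, 17 with no filter, 3 with a stricter gate, 2 with VCD_Vehicle_NormEnv, 0 with shared barcodes removed or in ILC2, 43 in T cells and 7 in macrophages. In luminal cells DESeq2 called 78 (636) for hormone and 58 (599) for P4. With each library left out in turn, the counts were 2883 to 3891 (endothelial), 7016 to 7790 (fibroblast), 8005 to 8823 (immune), 6040 to 7072 (luminal), 9125 to 9292 (Dpp4-type), 923 to 3281 (hormone in fibroblasts), 0 to 21 (P4 in fibroblasts), 0 to 38 and 0 to 3 (hormone and P4 in immune cells) and 74 to 344 (difference of the hormone effect). For luminal cells they were 156 to 544 (hormone) and 185 to 611 (P4), with sums of at least 5 cells except for the 460 calls of E2 against none without VCD_E2_P4. Those that moved over 1.5 times from the count as reported were, for hormone in luminal cells, without VCD_Low_PBDE (156), VCD_Vehicle (232), VCD_Low_E2 (285) or VCD_E2_P4 (344) and, for P4 in luminal cells, without VCD_E2_P4 (185), VCD_E2 (213), VCD_Low_E2_P4 (366) or VCD_Low_E2 (370).

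Among the members, signs turned in the class comparisons. Btc in fibroblasts was at -1.23, Hbegf in immune cells at 0.76 and Btc in immune cells at -2.55 with the endothelial sums left out, and Btc in immune cells at -1.38 by DESeq2. Each of these passed the threshold. Erbb3 in immune cells turned to 0.035 in thinned cells and, with a library left out, ran from -2.11 to 0.44, the latter without VCD_Vehicle_NormEnv, and its call was also lost without VCD_E2_P4, VCD_Low_PBDE, VCD_High_PBDE or VCD_E2_ICI (adjusted p up to 0.052) and with no filter on low counts. Apart from the endothelial sums, whose zeros enter the mean of the other classes, the cause was not tested. The luminal Egfr call was lost without VCD_Low_E2 or VCD_Low_E2_P4 (adjusted p = 0.081 and 0.064) and in thinned cells (1.00), the endothelial Areg call without VCD_Low_E2 (0.13) and with a stricter gate (0.052), and the endothelial Egfr (1.00) and immune Nrg1 (0.15) calls in thinned cells. Besides the turned signs and the fits with the endothelial sums left out, calls were gained in the class comparisons for endothelial Erbb3 (10% mitochondrial limit, and without VCD_Vehicle_NormEnv), fibroblast Areg (DESeq2, 10% mitochondrial limit, and without VCD_Low_PBDE) and Erbb3 (DESeq2) and immune Egfr (10% mitochondrial limit), and between fibroblast types for Erbb2 with a stricter gate (0.15, adjusted p = 0.038) and Ereg with no filter (-2.32, adjusted p = 0.0089). In fibroblasts, hormone passed for Hbegf without VCD_Vehicle (-0.85, adjusted p = 0.030), for Nrg1 by DESeq2 (adjusted p = 0.022) and without VCD_High_PBDE_E2 (2.22, adjusted p = 0.024), for Areg in the Cxcl14-type only (1.24, adjusted p = 0.024), and the difference of the hormone effect passed for Nrg1 without VCD_High_PBDE_E2 (2.71, adjusted p = 0.040).

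In luminal sums of at least 5 cells with a library left out, the P4 difference ran from -0.15 to 0.97 for Areg and from -1.09 to 3.28 for Btc, and turned without VCD_E2 (-0.15 and -0.17) or VCD_E2_P4 (-0.025 and -1.09). The Btc difference with hormone ran from 0.86 to 3.15 there and passed without VCD_E2 (adjusted p = 0.033) or VCD_Low_E2_P4 (0.0012). With sums of at least 10 cells, the luminal tests were not run with a stricter gate, VCD_Vehicle_NormEnv as vehicle, shared barcodes removed, or VCD_Vehicle, VCD_E2, VCD_Low_PBDE or VCD_Low_E2 left out, nor the P4 test without VCD_E2_P4, since too few sums remained. The comparisons of classes and of fibroblast types held the library as a term, and those of hormone and P4 held PBDE state, which matches the hormone states. No further pairing by replicate number was made, since each group is 1 library. The luminal and endothelial comparisons rest on 152 and 93 cells in 12 libraries.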
